A study of Saccharomyces cerevisiae with 18 samples.

Results

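Spores of Saccharomyces cerevisiae, formed by diploid cells of the homothallic Y55 strain background, were compared 32 min after transfer to YPD (yeast extract and peptone with glucose, a rich medium) and 32 min after transfer to 2% glucose alone. The comparison rests on 6 of the 53 arrays of a germination time course, 3 for YPD and 3 for glucose. On every array cDNA from the germinating spores carried Cy5 and cDNA from dormant spores, sampled before any germinant was added, carried Cy3. A value is thus the log2 ratio of a transcript to its level in dormant spores, and a difference is the YPD value minus the glucose value. Both media held glucose, so the question put by the comparison is what the other nutrients of the rich medium changed in the transcriptome. The labels state that each sample stands for several biological and scan replicates without saying which array is which, so that the p-values measure the spread between arrays, part of which may be technical.

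A dormant spore holds large stores of trehalose and glycogen and is kept in a state of low metabolism and high stress resistance. A fermentable sugar starts germination. The sugar acts through the Ras and protein kinase A pathway, which shuts down stress and storage genes and raises genes for ribosomes. Amino acids and ammonium act through the TOR kinase, whose activity also raises ribosome synthesis and lowers autophagy. Yeast cells that receive sugar without amino acids, purines or vitamins must make these themselves, and the pathways for doing so are transcribed according to need. Transcripts that differ between the media can therefore belong to growth, to carbon use, to stress defence or to biosynthesis.

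In each array a gene had 1 value, the mean of its spots after background correction and loess normalization. The median spot was 2.47 to 2.79 times its local background in Cy5 on the YPD arrays and 2.10 to 2.84 times on the glucose arrays. Across genes the 3 YPD arrays correlated with each other at r = 0.908 to 0.943, the 3 glucose arrays at 0.638 to 0.741, and arrays of different media at 0.633 to 0.776. The SD of log2 ratios over all genes was higher on the YPD arrays, at up to 1.11, than on the glucose arrays, at 0.658 to 0.876. All 3 YPD arrays were quantified on 1 day, on which no glucose array of 32 min was quantified, so day and medium cannot be told apart here. Glucose replicate 3 was also printed in another layout and quantified on another day than the other 2 glucose arrays. The SE of every difference came from limma fitted to all 53 arrays.

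Of 5826 genes tested, 552 (9.47%) were higher in YPD and 807 (13.9%) were lower in YPD at an adjusted p under 0.05, which is the p-value after correction for all genes tested. A difference of at least 2-fold was also required in a stricter count, which kept 187 higher (3.21%) and 370 lower genes (6.35%). Among the 4738 genes with a value on all 6 arrays, the media did not overlap for 1629 (34.4%). The median difference over all genes was 0.00, and single genes ranged from -3.93 to 2.70. Of the 1359 genes past the threshold, 190 had Cy3, the dormant-spore signal, not above background on any array of at least 1 medium, so that their ratios are uncertain in size. Among the genes named here these are RPA12, GAS3, HOM2 and MFA1 in both media, YAP7, MRT4, TMA23, RPL16B, NDT80, SSZ1 and CYS4 in YPD, and GID10, MAC1 and RPS30A in glucose. Most differences were differences of degree. Of the 552 higher genes, 369 had a positive mean against dormant spores in both media, 160 were positive in YPD and negative in glucose, and 23 were negative in both. Of the 807 lower genes, 564 were negative in both media, 219 were negative in YPD and positive in glucose, and 24 were positive in both. The counts depended on how the spread was handled. When all arrays were brought to an equal spread of log2 ratios, 30 genes were higher and 154 lower, so the higher genes made up 16.3% of the calls, against 40.6% without this step. With quantification day as a random block the counts were 145 and 393. With 0 min of the same medium subtracted they were 57 and 206, a baseline of 3 YPD and 2 glucose arrays.

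**Figure D1:**
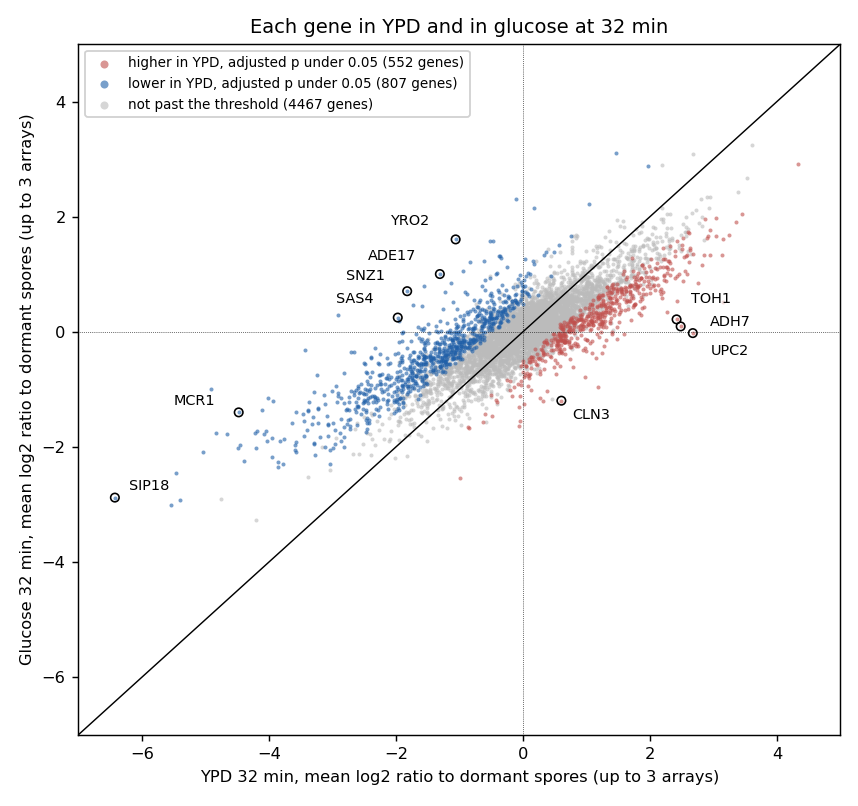
Each point is 1 of 5826 genes, with its mean log2 ratio to dormant spores at 32 min in YPD on the horizontal axis and in glucose on the vertical axis (up to 3 arrays each). The line marks equal values. The 552 genes higher in YPD lie below the line and the 807 genes lower in YPD above it. CLN3 and UPC2 lie near or below 0 in glucose and above 0 in YPD, while ADE17, SNZ1 and YRO2 lie above 0 in glucose and below 0 in YPD.

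The gene with the largest difference in favour of YPD was UPC2, which encodes a zinc-cluster activator of ergosterol synthesis and sterol uptake genes. Its log2 ratios were 3.00, 2.34 and 2.69 in YPD and -0.45, 0.40 and -0.01 in glucose. In glucose the transcript thus stood at the level of dormant spores, whereas all 3 YPD arrays were above it. At 0 min, however, its mean log2 ratio was already 0.95 ± 0.82 (SD) in YPD and 0.43 in glucose. How far the transcript rose above its dormant level in YPD is thus uncertain. The difference was 2.70 ± 0.44 (SE), or 6.49-fold, with an adjusted p of 1.9e-05 in limma, and it passed the threshold in every alternative but that with 0 min subtracted (adjusted p = 0.0961). ADH7, an NADPH-dependent alcohol dehydrogenase, had log2 ratios of 2.41, 2.26 and 2.78 in YPD, against -0.63, 0.49 and 0.42 in glucose. The values of the media lay far apart, with a difference of 2.39 ± 0.24 (adjusted p = 8.2e-10). TOH1, a cell wall protein gene of no assigned function, followed at 2.23, 2.30 and 2.72 in YPD and -0.11, 0.31 and 0.45 in glucose, a difference of 2.20 ± 0.26. ADH6, the close relative of ADH7, was 2.63 higher, but only YPD replicate 3 gave a value (3.15), and the 2 genes may share signal on the arrays. It was singled out after its value was seen.

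CLN3 was the cell cycle gene with the largest difference in favour of YPD. It encodes the G1 cyclin that sets the size and nutrient threshold for passing Start. Its log2 ratios were 0.74, 0.38 and 0.69 in YPD and -1.07, -1.07 and -1.45 in glucose, above 0 on each YPD array and below 0 on each glucose array. At 0 min, however, its mean log2 ratio was already -0.52 in YPD and -0.68 ± 0.71 (SD) in glucose. How far the transcript fell below its dormant level in glucose is thus uncertain. The difference was 1.80 ± 0.30 (3.49-fold, adjusted p = 1.6e-05), and it kept its call in every alternative tested. YAP7, a bZIP repressor gene, had log2 ratios of 0.59, 1.17 and 1.17 in YPD and -1.38, -1.42 and 0.42 in glucose. Here glucose replicate 3 stood well above the other 2 glucose arrays, and the difference was 1.77 ± 0.30.

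Several others of the 15 genes with the largest differences in favour of YPD serve RNA polymerases, pre-ribosomes and nucleotide salvage. RPB5, a subunit shared by all 3 nuclear RNA polymerases, had log2 ratios of 1.89, 2.74 and 2.19 in YPD and -0.11, -0.27 and 1.43 in glucose. RPA12, a subunit of RNA polymerase I whose Cy3 was above background on none of the 6 arrays, had 2.88, 2.28 and 3.67 in YPD and 0.56, 1.64 and 1.78 in glucose. Glucose replicate 1 of both genes was well below the YPD arrays, whereas glucose replicate 3 came close to the lowest of them. Their differences were 1.92 ± 0.44 and 1.62 ± 0.39. For RPB5 each dye was above background on only 1 of 3 glucose arrays, so the size of its difference is uncertain. SNU13, a protein of the U3 and spliceosomal RNA particles, showed 3.24, 3.26 and 2.89 in YPD and 1.13, 1.54 and 1.31 in glucose. UTP30, a part of the earliest pre-ribosome, showed 1.72, 1.40 and 1.65 in YPD and -0.29, -0.67 and 0.86 in glucose. Both differences, 1.81 ± 0.40 and 1.62 ± 0.31, exceeded the spread between arrays. For UTP30, however, Cy3 was above background on only 1 of 3 YPD arrays and 2 of 3 glucose arrays. Its Cy5 signal scaled across arrays was 9.27 in YPD and 9.07 in glucose (log2), so the size of its difference is uncertain. MRT4, which assembles with the large pre-ribosomal subunit, differed by 1.57 ± 0.39, and RMT2, which methylates a ribosomal protein, by 1.89 ± 0.32. OYE2, a flavin-containing NADPH oxidoreductase, differed by 1.66 ± 0.41, and the list was completed by the nucleotide genes AAH1, GUK1 and URA6 described below.

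The largest negative difference among genes with a symbol and all 6 values was that of SIP18, a hydrophilin that protects cells from drying. Its log2 ratios were -6.69, -6.25 and -6.33 in YPD and -1.72, -3.76 and -3.16 in glucose. The transcript was below its dormant level on all 6 arrays, and each YPD array was lower than the lowest glucose array by more than 2 log2 units. The difference was -3.55 ± 0.47 (11.7-fold lower, adjusted p = 3.1e-07). MCR1, a mitochondrial NADH-cytochrome b5 reductase, had -4.50, -4.88 and -4.05 in YPD and -1.47, -1.13 and -1.60 in glucose (difference -3.08 ± 0.28). SHH4, a mitochondrial relative of a succinate dehydrogenase subunit, had a fitted difference of -3.01, yet no YPD array had a Cy5 signal above background for it. As a bound it was at least 2.37-fold lower in YPD, from the Cy5 channel scaled across arrays, which without a dye swap is open to dye bias. MDG1, linked to pheromone G-protein signalling, differed by -2.87, the stationary phase gene SPG4 by -2.50, and RGI2, a gene of respiratory growth, by -2.34. These 3 genes were below dormant spores in both media. For MCR1, MDG1 and SPG4, Cy5 was above background on only 1 of 3 YPD arrays, so the sizes of their differences are uncertain.

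Of the 15 genes with the leading negative differences, PRX1 and CTT1 act against oxidants. PRX1, the mitochondrial peroxiredoxin, had log2 ratios of -2.99, -2.96 and -3.75 in YPD and 0.08, -0.84 and -1.51 in glucose. CTT1, the cytosolic catalase, had -4.08, -5.02 and -4.37 in YPD and -1.72, -1.33 and -3.01 in glucose. In glucose PRX1 was close to the dormant level on replicate 1, whereas CTT1 was already below it on all 3 arrays. Their differences were -2.48 ± 0.38 and -2.47 ± 0.31. Both calls were lost in 1 alternative only, that with equal spread, at an adjusted p of 0.0705 for PRX1 and 0.0563 for CTT1.

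Another set of genes lower in YPD was above the dormant level in glucose. SNZ1, which is needed for pyridoxine (vitamin B6) synthesis, had log2 ratios of -1.72, -1.72 and -2.03 in YPD and 0.76, 0.86 and 0.50 in glucose. The transcript was thus below dormant spores in YPD and above them in glucose on every array (difference -2.53 ± 0.28, adjusted p = 1.2e-08). ADE17, the bifunctional enzyme of the last steps of IMP synthesis, had -0.77, -1.12 and -2.04 in YPD and 1.62, 0.44 and 0.95 in glucose, a difference of -2.31 ± 0.34. GRE2, a methylglyoxal reductase, showed -1.57, -1.97 and -1.12 in YPD and 1.25, 0.22 and 0.92 in glucose, a difference of -2.35 ± 0.29. These 3 genes kept their call in every alternative. YRO2, a plasma membrane protein gene, had -0.32, -0.84 and -2.02 in YPD and 1.86, 0.46 and 2.50 in glucose. Its arrays differed among themselves by up to 2 log2 units, and its difference of -2.66 ± 0.62 was not past the threshold with 0 min subtracted (adjusted p = 0.0829). YRO2 and ADE17 were the only genes past the threshold with a mean of at least 1 in one medium and at most -1 in the other.

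GID10, a substrate receptor of the GID ubiquitin ligase, stood at -0.54, 0.17 and 0.03 in YPD, near the dormant level, and at 2.57, 3.10 and 1.23 in glucose. Its difference of -2.41 ± 0.39 came from a rise seen in glucose. SAS4, a subunit of a histone acetyltransferase complex, had -1.64, -1.84 and -2.43 in YPD and 0.73, 0.28 and -0.27 in glucose (difference -2.22 ± 0.23). HPA2, another acetyltransferase, had -2.80, -2.46 and -2.85 in YPD and 0.34, -0.31 and -1.06 in glucose (difference -2.36 ± 0.27). The 2 genes therefore fell in YPD while staying within about 1 log2 unit of dormant spores in glucose.

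**Figure D2:**
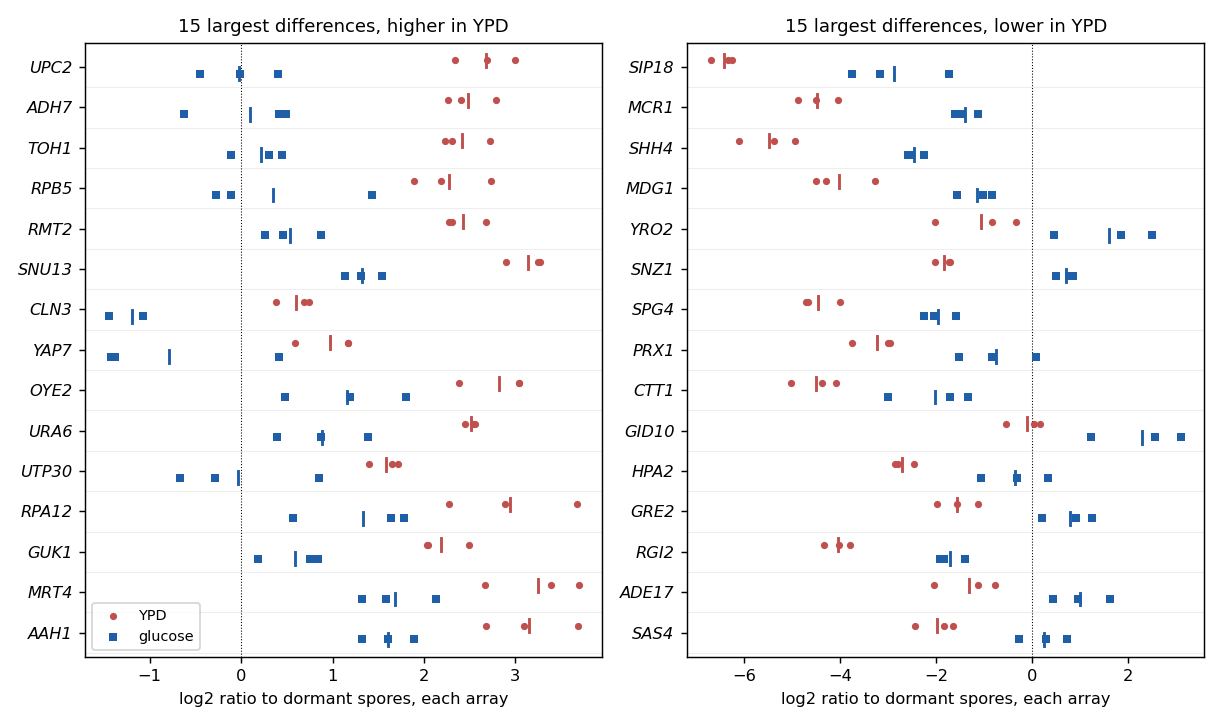
The log2 ratio to dormant spores on each array is shown for 15 genes higher in YPD (left panel) and 15 lower in YPD (right panel). They have the largest differences in each direction among genes with a symbol and 6 values. Circles are YPD arrays, squares are glucose arrays, and bars are their means. The rule for choosing these genes required that the media did not overlap and that Cy5 was above background on 2 arrays of the higher medium. All YPD arrays of UPC2 and CLN3 are above 0, with glucose arrays around 0 for UPC2 and below 0 for CLN3, and SNZ1, GRE2, ADE17 and YRO2 are above 0 in glucose only.

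Among 125 nucleolar ribosome assembly genes, 47 were higher and 1 was lower, against 9.47% and 13.9% of all genes, and their median difference was 0.69. The mean over the class was 1.25, 1.69 and 1.82 on the YPD arrays and 0.82, 1.04 and 0.82 on the glucose arrays, all above the dormant level. Besides SNU13, UTP30 and MRT4, the assembly genes RIX1 and TMA23 were higher by 1.46 and 1.45, the first with 2 YPD arrays. The one that was lower was SSF2 (difference -0.67 ± 0.24), for which glucose replicate 3 (-0.18) lay below the highest YPD array (0.13) and the call was lost in 16 alternatives. Leaving out 1 array at a time gave 21 to 53 higher assembly genes, with the fewest without YPD replicate 3. Equal spread left 1, subtraction of 0 min left 1, and the day block left 9.

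Of 66 large-subunit ribosomal protein genes, 23 were higher and 1 was lower, with a median of 0.51. Of 48 small-subunit genes, 15 were higher and 1 was lower, with a median of 0.53. RPL16B led the large subunit, with log2 ratios of 1.67, 1.55 and 1.25 in YPD and 0.09, 0.09 and 0.06 in glucose (difference 1.41 ± 0.22). No YPD array had Cy3, the dormant-spore signal, above background for RPL16B, and its scaled Cy5 signal was 8.81 in YPD and 8.95 in glucose (log2), so the size of its difference is uncertain. RPS7B led the small subunit, with 0.88, 0.61 and 0.52 in YPD and -0.54, -0.41 and -0.20 in glucose (difference 1.05 ± 0.24). Most ribosomal proteins of yeast have 2 near-identical genes, whose transcripts can bind each other's spots, so single genes of a pair are uncertain. RPL40A, which encodes a fusion of ubiquitin and a ribosomal protein, was called lower (-0.71), yet it lost the call in 13 alternatives and turned to 0.77 with median centring in place of loess. RPS30A was called lower as well, but none of the 6 arrays had Cy5 above background for it. With equal spread 1 large-subunit and 3 small-subunit genes were called higher, and with the day block 6 and 4. Without YPD replicate 1 or glucose replicate 1 the counts were 12 and 10, without YPD replicate 3 14 and 12, and without glucose replicate 2 15 and 9.

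RNA polymerases I and III make ribosomal and transfer RNA. Of 39 subunit and regulator genes 12 were higher and 4 were lower (median 0.47). RPA190, the largest subunit of polymerase I, was at 1.19, 1.44 and 1.30 in YPD and at -0.11 and -0.16 on the 2 glucose arrays with a value (difference 1.44 ± 0.26). The largest negative difference was that of MAF1, the repressor of RNA polymerase III that acts when nutrients run short. Its log2 ratios were -0.91, -0.75 and -0.62 in YPD and 0.31, 0.15 and 0.18 in glucose. The difference of MAF1 was -0.98 ± 0.23 (adjusted p = 0.0018), and the other lower genes were RPA14, TFC3 and TFC1. The count of higher genes was 6 without YPD replicate 2 or without glucose replicate 1, 1 with equal spread or with 0 min subtracted, and 3 with the day block.

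Of 35 tRNA modification and processing genes 11 were higher and 1 was lower (median 0.50). Of 16 cytosolic aminoacyl-tRNA synthetase genes 2 were higher (12.5%, near the 9.47% of all genes) and none was lower (median 0.51). The tRNA methyltransferase NCL1 had a difference of 1.57 ± 0.49, which rests on YPD replicate 3 alone (1.86, against 0.59, 0.66 and -0.35 in glucose). The tryptophanyl-tRNA synthetase WRS1 was 1.30 ± 0.38 higher, measured on 2 YPD arrays, and its glucose replicate 3 overlapped with them while the other 2 glucose arrays stood at -0.61 and -0.67. Of 36 translation factor genes 6 were higher and 2 lower. DED1, a helicase of translation initiation, had 2.31 and 2.55 on the 2 YPD arrays with a value and 0.85, 0.38 and 1.67 in glucose (difference 1.46 ± 0.40). RPG1, a subunit of initiation factor eIF3, went the other way at -1.24, -1.12 and -0.89 in YPD and 0.29, -0.12 and -0.39 in glucose (difference -1.01 ± 0.18), but it was at 0.18 with median centring in place of loess. The count of higher tRNA modification genes was 5 without glucose replicate 1, 6 without YPD replicate 3 and 7 without YPD replicate 2, and that of translation factors was 2 without YPD replicate 2. Mitochondrial ribosomal proteins did not share the direction of the cytosolic ones. Of 68 such genes 4 were higher and 3 were lower, fewer than among all genes, with a median of 0.07.

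**Figure D3:**
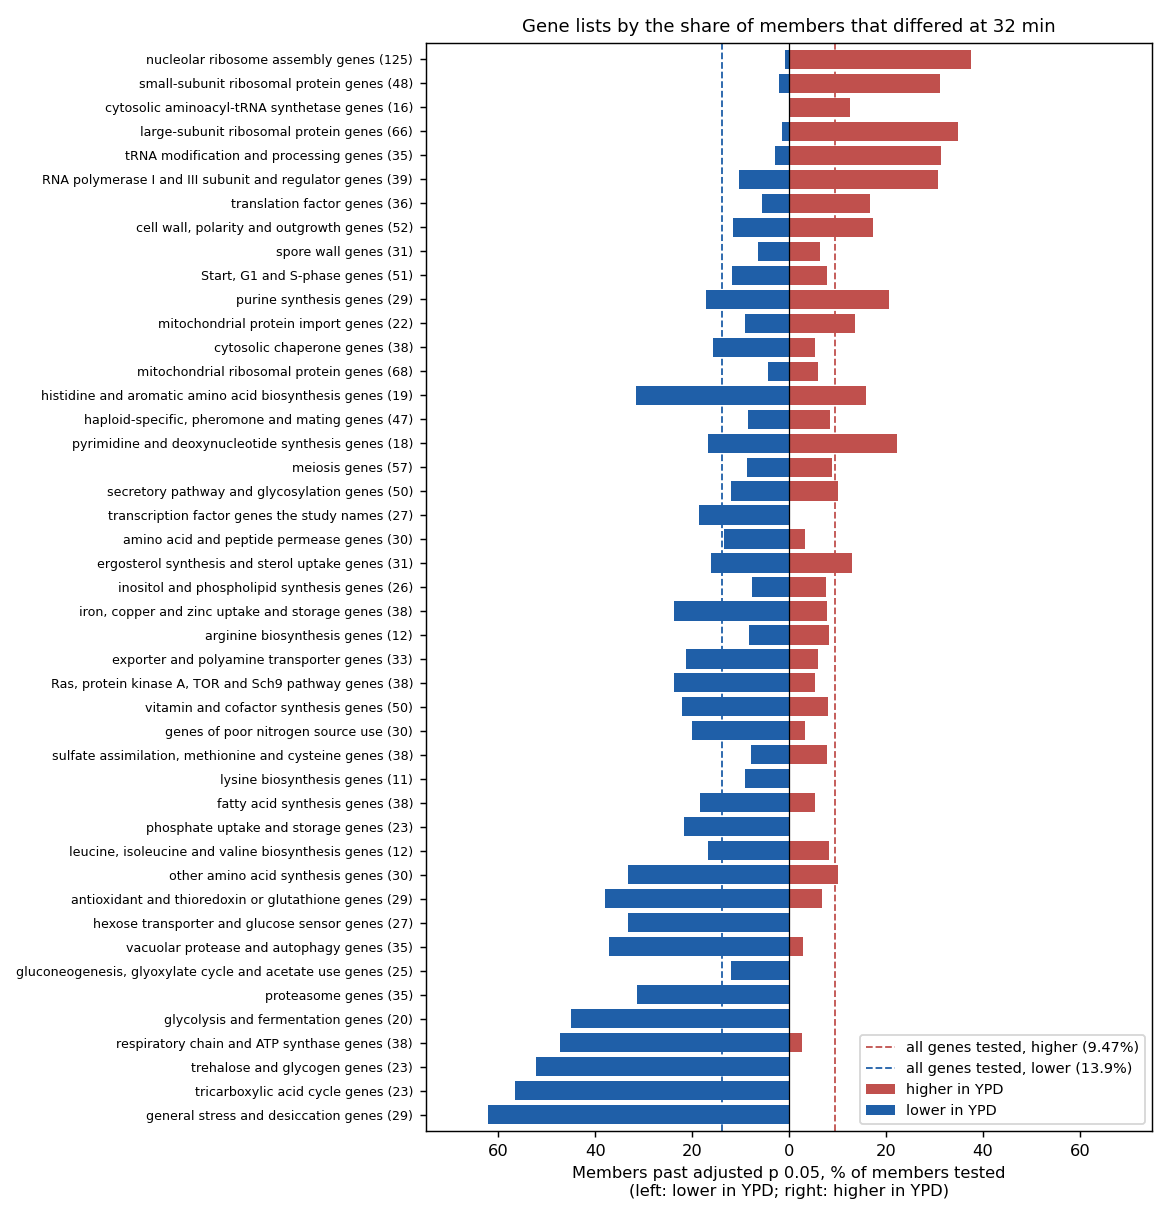
For each of 45 gene lists, the bars give the share of tested members (number in brackets) that were higher (right) or lower (left) in YPD at an adjusted p under 0.05. Dashed lines are the shares over all genes, 9.47% higher and 13.9% lower. Lists are ordered by their median difference, with ribosome assembly at the top and general stress genes at the bottom.

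Most biosynthetic lists held genes of both directions. Of 30 genes for the synthesis of glutamate, glycine, serine, threonine and related amino acids 10 were lower and 3 higher (median -0.33). GCV1 encodes a subunit of the glycine cleavage system, which turns glycine into one-carbon units. Its log2 ratios were -0.64, -0.69 and -1.48 in YPD and 1.45, 0.78 and 0.93 in glucose, with no overlap and with opposite sides of the dormant level (difference -1.99 ± 0.34, adjusted p = 3.5e-05). The next members were named after their values were seen. GCV2 and GCV3, the other subunits particular to this system, differed by -1.69 and -1.17, and the only glucose array with a value for GCV2 was replicate 3. MTD1, a one-carbon folate dehydrogenase, had -1.43, -1.10 and -0.88 in YPD and 0.58, 0.50 and 1.47 in glucose. SHM1, the mitochondrial serine hydroxymethyltransferase, had -0.39, -0.27 and -0.62 in YPD and 0.90, 0.75 and 1.36 in glucose. For both genes all YPD arrays were below dormant spores and all glucose arrays above. The higher members of this list were HOM2, THR1 and ASN1, at 0.82, 0.81 and 0.71. HOM2, of the aspartate pathway to threonine and methionine, was not above background in Cy5 on any glucose array, which gives a bound of at least 1.40-fold, and its call was lost in 13 alternatives.

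Single genes of other amino acid pathways were lower in YPD. LEU2, of leucine synthesis, had log2 ratios of 0.19, -0.06 and -0.06 in YPD and 1.17, 1.43 and 1.22 in glucose (difference -1.25 ± 0.19, adjusted p = 7.1e-06). HIS5, of histidine synthesis, had -0.52, -0.22 and -0.29 in YPD and 1.16, 1.63 and 1.04 in glucose (difference -1.62 ± 0.37). MET6, the methionine synthase, had -1.39, -1.71 and -1.66 in YPD and 1.04 and -0.14 on the 2 glucose arrays with a value (difference -2.03 ± 0.33). LEU2 was close to dormant spores in YPD, HIS5 was slightly below and MET6 well below, while in glucose the 2 arrays of MET6 lay on either side of 0 (adjusted p against dormant spores = 0.149). LYS20, of lysine synthesis, was at -1.18, -1.25 and -1.27 in YPD and at 0.03, -0.23 and -0.24 in glucose, so its difference of -1.09 ± 0.34 was a fall in YPD.

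The same pathways held genes that were higher in YPD. ARO7, the chorismate mutase on the way to tyrosine and phenylalanine, had 2.25, 1.26 and 1.79 in YPD and 0.40, 0.33 and 0.74 in glucose (difference 1.28 ± 0.27). CYS3, which makes cysteine from cystathionine, had 2.26, 2.47 and 1.94 in YPD and 0.70, 0.80 and 1.48 in glucose (difference 1.23 ± 0.33). Both were above dormant spores in both media and more so in YPD. ARG8 was 0.86 higher and the mitochondrial carrier gene LEU5 0.66 higher, and these calls were lost in 11 and 15 alternatives. By pathway, 6 of 19 histidine and aromatic genes were lower and 3 higher, 3 of 38 sulfur genes lower and 3 higher, 2 of 12 branched-chain genes lower and 1 higher, and 1 of 11 lysine genes lower. Apart from the histidine and aromatic list these shares were near or below those of all genes.

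Among genes of nitrogen source use the largest difference was that of UGA2. This gene, which acts in the breakdown of GABA to succinate, had log2 ratios of -0.57, -0.40 and -0.46 in YPD and 1.99, 1.34 and 1.41 in glucose. The arrays agreed closely within each medium, and the difference was -2.06 ± 0.22 (4.16-fold lower, adjusted p = 4.8e-09). UGA1, the step before it, differed by -1.44. DAL3, of allantoin breakdown, went the other way with 1.80, 1.70 and 2.02 in YPD and 0.56, 0.33 and 0.71 in glucose (difference 1.31 ± 0.29). In all, 6 of 30 genes of poor nitrogen source use were lower and 1 was higher. Of 30 amino acid and peptide permease genes 4 were lower (13.3%) and 1 was higher (3.33%), near or below the 13.9% and 9.47% of all genes. SSY1, the plasma membrane sensor of external amino acids, was at -2.26, -2.74 and -2.70 in YPD and -0.89, -0.97 and -1.25 in glucose (difference -1.53 ± 0.26), while the tryptophan permease TAT2 was 0.74 higher with overlapping arrays and lost its call in 16 alternatives.

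Of 29 purine genes 6 were higher and 5 were lower. The count of lower genes was 1 without YPD replicate 3, without glucose replicate 1, with the day block, with only the 6 arrays in the fit and with 0 min subtracted, and 2 with equal spread and without glucose replicate 3. The roles below were assigned after the values were seen, with no list or test for them. The lower ones were ADE17 with ADE13, ADE2, ADE3 and PRS4, of which all but PRS4, a phosphoribosyl pyrophosphate synthetase, act in the de novo route or supply its one-carbon units. The higher ones were GUK1, AAH1, PRS3, ADE12, ADO1 and FCY1. PRS3 makes phosphoribosyl pyrophosphate like PRS4, and FCY1, though on the purine list, is a cytosine deaminase of pyrimidine salvage. The others act in purine salvage, in the phosphorylation of nucleotides, or at the branch to AMP. GUK1, the guanylate kinase, had 2.04, 2.04 and 2.49 in YPD and 0.18, 0.85 and 0.75 in glucose (difference 1.59 ± 0.25). AAH1, the adenine deaminase, had 2.68, 3.09 and 3.68 in YPD and 1.61, 1.32 and 1.89 in glucose (difference 1.54 ± 0.35). Both were above dormant spores in either medium. For AAH1, as for URA6 below, Cy3 was above background on only 1 of 3 glucose arrays, so the sizes of these differences are uncertain. Each of these calls was lost in 2 alternatives. ADE2, of the de novo route, had -0.07, -0.03 and -0.71 in YPD and 0.96, 0.05 and 1.16 in glucose (adjusted p = 0.0301). Of 18 pyrimidine and deoxynucleotide genes 4 were higher, led by the uridylate kinase URA6 at 2.45, 2.54 and 2.56 in YPD and 0.39, 1.38 and 0.87 in glucose (difference 1.63 ± 0.36), and 3 were lower, led by the thymidylate kinase CDC8 (difference -1.04 ± 0.23).

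Among 50 vitamin and cofactor genes 11 were lower and 4 were higher, and 7 were lower without YPD replicate 2 or glucose replicate 1. Pyridoxine synthesis accounted for the strongest negative differences, since the relatives SNZ2 and SNZ3 were lower too, with differences of -1.15 and -1.20. These 3 genes are close in sequence, so signal may be shared. VHT1, the biotin importer, was 1.43 ± 0.38 higher, at -0.45, 0.24 and 1.04 in YPD and -1.36, -2.15 and 0.06 in glucose. Its arrays spread over more than 1 log2 unit in both media and overlapped.

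Among genes of carbon use nearly all calls were lower in YPD. HXK1, a hexokinase of cells without ample glucose, had log2 ratios of -2.23, -1.91 and -1.71 in YPD and 0.85, 0.24 and -0.51 in glucose (difference -2.14 ± 0.28, adjusted p = 4.4e-07). SUC2, the secreted invertase, was at -0.84 and -0.20 on 2 YPD arrays and at 1.73 and 1.42 on 2 glucose arrays (difference -2.09 ± 0.60). On glucose arrays both transcripts were thus mostly above dormant spores, and on YPD arrays below. Of 20 glycolysis and fermentation genes 9 were lower and none higher in limma (median -0.57), where at an unadjusted p under 0.05 11 were lower and 0 higher. Of 27 hexose transporter and sensor genes 9 were lower and none higher (median -0.44), against 10 and 1 unadjusted. The count of lower hexose genes was 4 without glucose replicate 1 and with the day block, 6 without glucose replicate 2 or YPD replicate 2 or 3, 3 with equal spread, 2 with only the 6 arrays in the fit and 1 with 0 min subtracted. The glucokinase GLK1 differed by -1.90 and the hexokinase HXK2, measured on 2 arrays of each medium, by -1.61. Members of the HXT transporter family share long stretches of sequence, so HXT6 (difference -1.63) and HXT7 (difference -0.93) cannot be separated with certainty.

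The tricarboxylic acid cycle was the most uniform of the carbon lists. Of 23 genes 13 were lower, none was higher (16 and 0 unadjusted), and all 23 differences were below 0 (median -0.92). The mean over the list was -1.37, -1.34 and -1.31 on the YPD arrays and -0.13, -0.60 and -0.51 on the glucose arrays. MDH1, the mitochondrial malate dehydrogenase, had -2.59, -2.03 and -2.38 in YPD and 0.09, -0.46 and -0.50 in glucose (difference -2.04 ± 0.25, adjusted p = 4.8e-08). SDH2, the iron-sulfur subunit of succinate dehydrogenase, was next with -3.59, -2.91 and -3.63 in YPD and -0.77, -1.49 and -1.84 in glucose. Both had left the dormant level by more than 2 log2 units in YPD. With equal spread 2 of the 23 genes were called lower, with 0 min subtracted 3, and with the day block 8, all with a negative median.

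Of 38 respiratory chain and ATP synthase genes 18 were lower and 1 was higher (median -0.68). NDI1, the internal NADH dehydrogenase, had -3.15, -3.13 and -3.08 in YPD and -0.95, -1.62 and -1.19 in glucose (difference -1.86 ± 0.20). QCR7, of complex III, differed by -1.97 with 1 YPD array (-3.00) against 3 in glucose, and the single higher gene CYB2, a lactate dehydrogenase, rested on 1 glucose array (-1.20) and lost its call in 6 alternatives. Leaving out 1 array at a time gave 8 to 18 lower respiratory genes, with the fewest without glucose replicate 1. Of 25 genes of gluconeogenesis, the glyoxylate cycle and acetate use 3 were lower and none higher (8 and 1 unadjusted), a share below the 13.9% of all genes. With equal spread limma called 0 (2 lower unadjusted), and without YPD replicate 3 it called 6. The 3 lower genes with all arrays in use were ICL1, CAT2 and YAT1. ICL1, the isocitrate lyase, had -2.88, -2.85 and -2.02 in YPD and -0.95, -1.07 and -1.15 in glucose. CAT2 (difference -1.70 ± 0.41) and YAT1 are carnitine acetyltransferase genes. The peroxisome division gene PEX11 had no YPD array above background and was at least 2.96-fold lower.

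Of 23 trehalose and glycogen genes 12 were lower and none was higher (median -0.91), against 15 and 0 unadjusted. TPS2, which completes trehalose synthesis, was the extreme, at -3.22 and -3.64 on 2 YPD arrays and -0.39, 1.04 and -1.60 in glucose. Its glucose arrays differed by more than 2 log2 units, but none approached the YPD arrays (difference -3.11 ± 0.38, adjusted p = 8.6e-08). TPS1, the first enzyme of the pathway, had -0.80, -0.45 and -0.32 in YPD and 1.29, 1.02 and 0.50 in glucose. NTH1, which breaks trehalose down, had -1.09, -0.51 and -0.46 in YPD and 1.22, 0.53 and -0.21 in glucose. Genes for making and for degrading trehalose therefore differed in the same direction, with differences of -1.46 ± 0.25 and -1.20 ± 0.23. With equal spread 3 members were called lower, with 0 min subtracted 4, with the day block 6, and without glucose replicate 1 7.

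Of 29 general stress and desiccation genes 18 were lower and none was higher (median -1.16), the largest share lower among the 45 lists, against 21 and 0 unadjusted. GRE1, a hydrophilin related to SIP18, had log2 ratios of -5.46, -5.28 and -5.46 in YPD and -2.30 and -3.54 on 2 glucose arrays. The list mean was -2.19, -2.51 and -2.27 on the YPD arrays and -0.59, -1.21 and -1.24 on the glucose arrays. Stress transcripts had thus left their dormant level in both media, and further in YPD. Equal spread left 4 of these calls, subtraction of 0 min 8, and the day block 13. Leaving out 1 array at a time gave 13 to 19.

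Among 29 antioxidant genes 11 were lower and 2 were higher. SOD2, the mitochondrial superoxide dismutase, had -2.51, -3.05 and -2.90 in YPD and -0.12, -0.82 and -1.22 in glucose, and GTT1, a glutathione transferase, -4.71, -3.77 and -4.12 in YPD and -1.45, -2.26 and -2.35 in glucose. The 2 higher genes were OYE2 and DOT5, a nuclear peroxiredoxin (0.90). Cytosolic chaperone genes showed no common direction, with 6 of 38 lower (15.8%, near the 13.9% of all genes), 2 higher and a median of 0.08. CCT6, a subunit of the cytosolic chaperonin, had no YPD array with Cy5 above background and was at least 2.08-fold lower. HSP104, the disaggregase, was at -1.35, -1.52 and -1.25 in YPD and at 0.16, 0.05 and 0.12 in glucose, hence at its dormant level in glucose. SSZ1, a partner of the ribosome-bound chaperone, was 1.02 higher and lost the call in 12 alternatives.

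Of 35 proteasome genes 11 were lower and none higher (median -0.53), against 19 and 0 unadjusted. The list was led by CDC48, the segregase that feeds ubiquitinated proteins to the proteasome, at -1.77, -1.83 and -1.34 in YPD and -0.32, -0.36 and -0.56 in glucose (difference -1.23 ± 0.22). The differences of the 11 genes lay between -1.23 and -0.60. With equal spread 0 of the 35 passed the adjusted threshold in limma (12 were lower at an unadjusted p under 0.05), with 0 min subtracted 1 did, with the day block 4, and without YPD replicate 3 or glucose replicate 1 7.

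Of 35 vacuolar protease and autophagy genes 13 were lower and 1 was higher (median -0.47). APE3, a vacuolar aminopeptidase, had -3.21, -2.57 and -2.80 in YPD and -0.81, -1.73 and -0.91 in glucose (difference -1.71 ± 0.24), and it kept its call in every alternative. ATG1, the kinase that starts autophagy, had -1.88, -1.52 and -1.39 in YPD and 0.40, -0.19 and -0.07 in glucose (difference -1.65 ± 0.25). PEP4, the proteinase that matures the other vacuolar hydrolases, had -1.33, -1.26 and -1.30 in YPD and 0.40, -0.04 and -0.33 in glucose. Both ATG1 and PEP4 were close to dormant spores in glucose. ATG7 was the 1 higher member (0.57) and lost its call in 14 alternatives.

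Of 38 genes of the Ras, protein kinase A, TOR and Sch9 pathways 9 were lower and 2 were higher. TOR1, one of the TOR kinase genes, had log2 ratios of -3.61, -3.86 and -4.10 in YPD and -1.18, -3.27 and -2.34 in glucose. It was thus far below dormant spores in both media, and the glucose arrays ranged over 2 log2 units (difference -1.59 ± 0.36). BCY1, the inhibitory subunit of protein kinase A, had -2.60, -3.79 and -2.83 in YPD and -1.17, -2.45 and -1.22 in glucose (difference -1.46 ± 0.30). CYR1, the adenylate cyclase, and YAK1, a kinase that opposes growth, differed by -1.13 and -1.29. The higher genes were TPK3 (0.61), a catalytic subunit of protein kinase A, and GTR1 (0.98), a GTPase that activates TOR, measured on YPD replicate 3 only. Without glucose replicate 1 the list had 4 lower genes, and 27 of its 38 genes did not pass the threshold.

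Of 51 Start, G1 and S-phase genes 4 were higher and 6 were lower, shares close to those of all genes, so CLN3 did not stand for its list. Without glucose replicate 1 the counts were 3 and 3. Histone genes were among those lower in YPD. HTA2, of histone H2A, was at -1.47, -1.28 and -1.38 in YPD and -0.32, -0.39 and -0.37 in glucose (difference -1.02 ± 0.19). HTA1, the other H2A gene, was 0.93 ± 0.26 higher at 1.74, 1.66 and 1.89 in YPD and 0.79, 0.99 and 0.71 in glucose. The arrays of each medium lay close together for these 2 genes, although their coding sequences are near-identical and signal may be shared. BCK2, another activator of Start, differed by -0.93.

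Of 52 cell wall, polarity and outgrowth genes 9 were higher and 6 were lower (median 0.28), against 9.47% and 13.9% of all genes. Without YPD replicate 2 the counts were 5 and 4, without YPD replicate 1 6 and 3, and with the day block 3 and 2. With equal spread limma called 0 (7 and 5 unadjusted), and with 0 min subtracted 0 and 2 (7 and 6 unadjusted). SIM1, a cell wall protein of the SUN family, had 1.94, 2.23 and 2.47 in YPD and 0.53, 0.24 and 1.32 in glucose (difference 1.52 ± 0.38). CCW12, an abundant mannoprotein of growing walls, was 1.26 higher, and the glucan-remodelling genes GAS5 and GAS3 were 1.12 and 1.07 higher. The lower members included the wall protein gene PST1 (difference -1.33 ± 0.35) and BUD8, a bud site marker (-1.25). Among 31 sterol genes 4 were higher (12.9%) and 5 were lower (16.1%), near the shares of all genes. The counts were 3 and 2 without glucose replicate 2, and 2 and 3 without glucose replicate 1. Beside UPC2, ERG4, which completes ergosterol, was at 2.37, 2.69 and 2.10 in YPD and 0.50, 1.30 and 1.01 in glucose (difference 1.45 ± 0.25), while the HMG-CoA reductase genes HMG1 and HMG2 differed by -1.08 and -0.69. The list as a whole had a median of -0.08.

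Metal and transport genes held a few strong members. CRS5, a copper-binding metallothionein, had -2.82, -2.92 and -3.07 in YPD and -0.91, -1.70 and -0.23 in glucose (difference -1.99 ± 0.45). The other metallothionein copies CUP1-1 and CUP1-2, which the arrays cannot tell apart, differed by -1.53 and -1.56. MAC1, the activator of copper uptake genes, had no glucose array with Cy5 above background and was at least 2.27-fold higher in YPD. AQY1, a water channel of spores, had -3.31, -2.30 and -2.34 in YPD and -0.25, -0.16 and -0.65 in glucose (difference -2.30 ± 0.32). This call was kept in every alternative that included the gene, 23 against 25 for CLN3. On the glucose arrays, however, either dye was above background on only 1 of 3, and the Cy5 signal scaled across arrays was 8.13 in YPD and 6.91 in glucose (log2), opposite to the ratios. The size and direction of the AQY1 difference are therefore uncertain.

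Among 27 transcription factor genes that the study names as regulators and that had a value, none was higher in YPD and 5 were lower (2 and 5 unadjusted). The study predicted these factors from the expression of their target genes. The values here are those of the factors' own transcripts, which is another measure. HAP4, the activator subunit for respiratory genes, was at 0.32, 0.13 and 0.05 in YPD and at 1.40, 2.02 and 0.25 in glucose. Glucose replicate 3 overlapped with YPD, and the difference of -1.06 ± 0.35 lost its call in 11 alternatives. HAP1, the heme-dependent activator, differed by -0.81 ± 0.24, a call lost in 11 alternatives, and HSF1, the heat shock factor, by -0.75 ± 0.17, with HSF1 at -0.35, -0.54 and -0.80 in YPD and 0.17, 0.36 and 0.03 in glucose. YAP6 and DAL81 differed by -0.66 and -0.52, with the calls lost in 9 and 14 alternatives, and DAL81 was at 0.09 with median centring in place of loess. The 22 others did not pass the threshold. Of these, ROX1, the repressor of hypoxic genes, was at 1.66, 1.92 and 2.04 in YPD and 1.81, 2.04 and 1.85 in glucose, and MIG1, the glucose repressor, at 1.57, 1.81 and 1.23 in YPD and 1.49, 2.16 and 0.62 in glucose. The differences were -0.03 ± 0.20 and 0.11 ± 0.29, and both transcripts were above dormant spores on all 6 arrays. BAS1 and LEU3, activators of purine and leucine genes, differed by 0.21 ± 0.27 and -0.01 ± 0.33. MSN2, MSN4, RAP1 and UME6 differed by -0.72, -0.05, -0.05 and 0.13, with MSN2 measured on 1 YPD array.

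Genes that mark other cell states did not separate the media as lists. Of 57 meiosis genes 5 were higher and 5 lower, of 31 spore wall genes 2 and 2, and of 47 haploid-specific and mating genes 4 and 4, all below the shares among all genes. The mean over the spore wall list lay between -0.23 and -0.07 on the YPD arrays and between -0.29 and -0.14 on the glucose arrays, and that over the meiosis list between -0.16 and -0.04 and between -0.07 and -0.04. SPS100, a gene of spore wall maturation, was the exception in size, at -4.09 and -4.05 on 2 YPD arrays and -1.77 on the 1 glucose array with a value. NDT80, the meiotic activator, was higher at 2.50, 2.16 and 2.52 in YPD and 1.25, 1.99 and 0.72 in glucose, a call lost in 8 alternatives. STE20, a kinase of the pheromone pathway, was 1.57 ± 0.35 higher, whereas STE11, a kinase that acts below it, differed by -1.09. MFA1, which encodes the a-factor pheromone, had no glucose array with Cy5 above background and was at least 2.02-fold higher in YPD.

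The medium difference at 32 min was set against that at the other times of the course, which use other arrays, each against dormant spores. At 0 min 2 genes were higher and 0 lower in YPD (limma, adjusted p under 0.05; 126 and 50 at an unadjusted p under 0.05), at 16 min 513 and 635, at 48 min 96 and 468, and at 64 min 378 and 790. None of the genes called at 32 min was called in the same direction at 0 min. With 3 YPD and 2 glucose arrays at 0 min and so few calls there, this overlap was bound to be small. The difference itself was then tested between times. It differed between 32 and 16 min for 43 of 5826 genes, and between 32 and 48 min for 1. UPC2 differed by 1.73 at 16 min, 2.70 at 32 min and 2.06 at 48 min, and CLN3 by 1.88, 1.80 and 1.30. SNZ1 differed by -1.49, -2.53 and -2.55, and ADE17 by -1.86, -2.31 and -2.30. For these 4 genes the difference thus passed the threshold at all 3 times, with no call for a change between them. RPB5 and OYE2 differed by 2.22 and 2.85 at 16 min and by -0.03 each at 48 min, and the change between 32 and 48 min did not pass the test (adjusted p = 0.453 and 0.595).

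**Figure D4:**
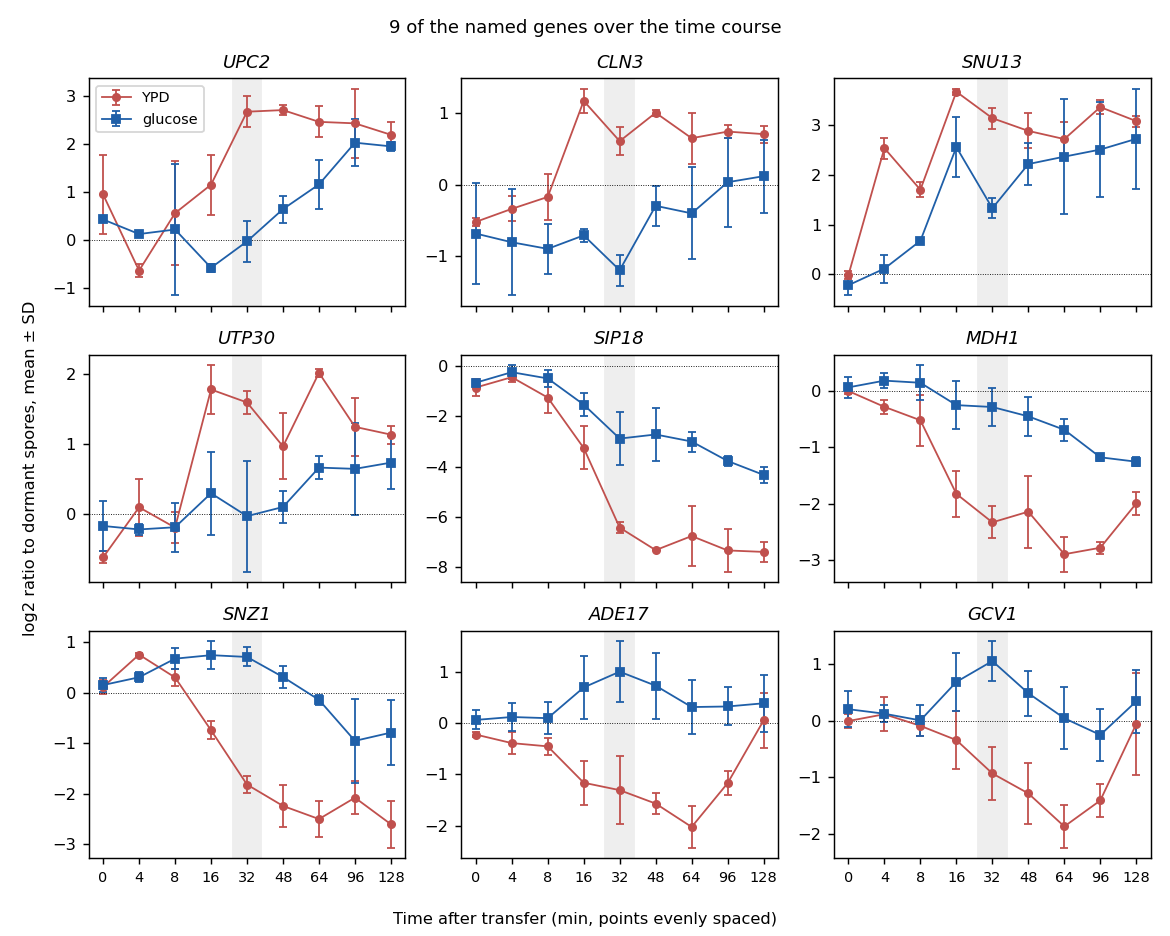
Mean log2 ratio to dormant spores (± SD, 1 to 3 arrays a point) of 9 named genes from 0 to 128 min in YPD (circles) and glucose (squares), with 32 min shaded and time points evenly spaced. UPC2 in glucose reaches the YPD values late in the course, SIP18 is below 0 in both media and further below in YPD at 16 min and later, and SNZ1, ADE17 and GCV1 are above 0 at 32 min in glucose only.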

How the data were processed

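The authors hybridised Cy5-labelled cDNA of germinating spores against Cy3-labelled cDNA of dormant spores on spotted arrays of 13056 spots, without a dye swap. Per the file headers, the images were quantified with ImaGene 6.0.1, and the deposited spot intensities had neither background subtraction nor normalization. The authors' table of log2 ratios, deposited as 1 mean per gene and group, was used only as an alternative. The study states loess normalization. The columns of 32 min had medians of -0.00833 (YPD) and 0.00791 (glucose), differences ran in the same direction as those from the scanner files (r = 0.914 across genes), and the scale and any centring by gene are not known.

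Mean spot intensities were corrected with limma's normexp method (offset 50) and log2 ratios were normalized by global loess in each array, with control spots and spots flagged poor or marked by hand left out. Spots of a gene were averaged, and 5826 genes with a value in each of 18 groups were fitted with lmFit and eBayes (limma 3.58.1, R 4.3.3, statmod 1.5.0), Benjamini-Hochberg adjusted, with a threshold of 0.05. With 3 arrays against 3, an exact permutation test allows no p below 0.1, so single genes were tested in this fit. Gene symbols came from a RefSeq table matched by identifier (5286 genes), otherwise identifiers were kept. Precision depends on how many arrays there are and on signal over background. A gene counted as above background when its signal passed the local background by 2 SD. The models were tested on simulated data.

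Named genes are the 15 largest differences in each direction (all 6 values, no overlap, Cy5 above background on at least 2 arrays of the higher medium, a symbol), the leading called gene in each direction of 45 lists, genes at or past 1 in one medium and -1 in the other, and the regulators the study names; other members were named after their values were seen. The comparison, the members and the lists were chosen with earlier results of these data known. Alternatives changed the background, normalization, intensity measure, flags, dim filter, baseline, arrays in the fit, blocks and threshold. No promoter or protein sequence was used here. One gene that the rule names is not reported here.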

Additional observations from a re-analysis of the deposited data

Results flagged for a closer look

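For 3 named genes the difference between YPD and glucose at 32 min differed from that at 16 min by an interaction test in limma, among 43 of 5826 genes for which it did. AQY1 differed by -2.30 at 32 min and -0.40 at 16 min, a change of -1.90 (adjusted p = 0.0481). For AQY1 either dye was above background on only 1 of 3 glucose arrays at 32 min, and scaled Cy5 was 8.13 in YPD and 6.91 in glucose (log2), so these sizes and their direction are uncertain. LEU2 differed by -1.25 at 32 min and 0.11 at 16 min, a change of -1.36 (adjusted p = 0.00829). RPL16B differed by 1.41 at 32 min and 0.16 at 16 min, a change of 1.26 (adjusted p = 0.0402). Its Cy3 was above background on no YPD array at 32 min, so the size is uncertain. At 48 min the differences of these genes were -1.39, -1.76 and 0.65.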

How the results depend on the processing

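Of the 101 named genes past the threshold, 28 kept their call and direction in every alternative with a test that included them, 7 higher and 21 lower in YPD. Some of the 28 were left out of some alternatives, where they were not tested. AQY1 was in 23 alternatives and MET6 and TPS2 were in 22, against 25 for CLN3. DAL81 (0.0892), RPG1 (0.18) and RPL40A (0.77) turned positive with median centring in place of loess.

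Main counts were 552 higher and 807 lower. They were 30 and 154 with equal scale between arrays, 57 and 206 with 0 min subtracted, 145 and 393 with quantification day as a random block (correlation 0.295), 248 and 448 with only the 6 arrays in the fit, 234 and 495 among the 2458 genes above background in both dyes on all 6 arrays, 187 and 370 with a difference of at least 1 required, and 313 higher with plain background subtraction. Of these, 18 and 114 genes were called alike with equal scale, 0 min subtracted and the day block. In the authors' table, 37 and 219 genes differed by at least 1, without a test; its differences correlated with those here at 0.914 across genes. Without 1 array the counts were 287 to 525 and 512 to 773, lowest without glucose replicate 1.

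The replicate block by file number gave 581 and 852 over all groups, and 318 and 462 within the 6 arrays (4738 genes). The deviations of same-numbered arrays from their medium's mean correlated at 0.0254, 0.185 and -0.0143. With 3 arrays a medium, these values cannot settle whether the numbers pair the arrays. By the number in the image names, chosen after seeing the data, the block gave 192 and 337. Dim genes have bounds only; at 3 SD over background that of SHH4 was 1.98-fold.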

Other observations

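Genes without a value in every one of the 18 groups were left out of the comparison, and 215 of them had values on at least 2 arrays in each medium at 32 min. In a fit that included them, 51 passed an adjusted p of 0.05. Those named here were chosen after their values were seen. ALA1, the alanyl-tRNA synthetase, averaged 2.10 in YPD (3 arrays) and -0.57 in glucose (2 arrays), a difference of 2.67 ± 0.32. FAF1, a pre-ribosome factor, averaged 2.15 in YPD and 0.41 in glucose on 3 arrays each. TPI1, the triose phosphate isomerase of glycolysis, averaged 0.27 in YPD and -1.49 in glucose, a difference of 1.76 ± 0.34 and thus opposite in sign to the glycolysis genes that were called. GAT1, an activator of genes for poor nitrogen sources, was at 0.03 in YPD and -1.38 in glucose. AHP1, a peroxiredoxin, averaged -2.72 in YPD and 0.19 in glucose on 2 arrays each. ADE16, the relative of ADE17, averaged -1.91 in YPD and -0.43 in glucose, a difference of -1.48 ± 0.28.

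Several genes outside the rule for naming had differences as large as those described. YFL013W-A, which has no symbol, was the largest of all, at -5.03, -4.89 and -4.83 in YPD and -0.22, -0.83 and -1.92 in glucose (difference -3.93 ± 0.31, adjusted p = 1.9e-12). PIL1 and LSP1, the core components of eisosomes, which are furrows of the plasma membrane, differed by -3.07 and -2.76, PIL1 with 2 YPD arrays and LSP1 with 2 arrays of each medium. The 2 genes are similar in sequence, so signal may be shared. FMP48 had -2.62, -3.14 and -2.97 in YPD and 0.29 on the 1 glucose array with a value.

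CYS4, which makes cystathionine from homocysteine, was the 1 gene whose medium difference changed between 32 and 48 min, at -0.92 and 0.47 (adjusted p = 0.032). None of its YPD arrays of 32 min had Cy5 above background.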
